A study of Mus musculus with 12 samples.

Results

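The Slit ligands (Slit1, Slit2 and Slit3), the Robo receptors (Robo1, Robo2 and Robo3), the Slit-Robo GTPase-activating proteins or srGAPs (Srgap1, Srgap2 and Srgap3) and the Robo3 ligand Nell2 were followed across all libraries of the series. They were chosen by symbol, and all 10 were found among the 30740 symbols of the deposited count table. RNA was sequenced from ventral spinal cord cells of CB6F1/J mouse embryos at E12.5, after dissociation and sorting on Hb9:GFP, a reporter under the promoter of the motor neuron gene Mnx1 (Hb9). Of the 12 libraries, 5 held GFP-positive cells from Arhgap35 knockout (KO) embryos and 5 held GFP-positive cells from control littermates. The other 2 held GFP-negative cells, 1 from KO and 1 from control embryos. The control libraries are labelled wild type, while the protocol describes control littermates as wild-type or p190+/-. All embryos, KO and control, carried the reporter, the tissue was pooled before sorting, and the sources used here do not give the deleted stretch of Arhgap35. Nothing in the labels ties replicates to separate litters, so a p-value here speaks of the spread among libraries, which may be partly technical.

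Slits are large secreted proteins that bind the immunoglobulin domains of Robo1 and Robo2 and repel growing axons, and in the spinal cord they are best known for keeping axons from crossing or recrossing the floor plate at the ventral midline. Robo3 is the divergent family member: in mammals it has lost high-affinity Slit binding, is made by commissural neurons whose axons cross the midline, and binds Nell2, a secreted protein of the ventral horn. The srGAPs bind the cytoplasmic tail of Robo receptors and shut off small GTPases, among them Cdc42 and Rac. Arhgap35 encodes p190, a GTPase-activating protein that is not itself an srGAP. Motor neurons make Slits as well as Robo receptors, and their own axons leave the cord without crossing the midline.

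Arhgap35 stood at 27.2, 23.9, 28.0, 29.2 and 24.4 TPM (a level scaled by transcript length and library total) in KO GFP-positive libraries 1 to 5, against 44.3, 55.5, 47.5, 51.2 and 36.8 TPM in control GFP-positive libraries 1 to 5. Each KO library lay below each control library. In GFP-negative cells it stood at 25.6 TPM in the KO library and 41.5 TPM in the control library. In edgeR's quasi-likelihood test with Benjamini-Hochberg (BH) adjustment the log2 fold change in GFP-positive cells was -0.83 (standard error, SE, 0.0996; adjusted p = 0.0240). In the fit that blocks on the replicate number (the replicate block) it was -0.82 with an adjusted p of 0.162, leaving out 1 replicate at a time gave adjusted p from 0.000758 to 0.141, and 5 of 19 alternative fits passed the threshold of 0.05. A separate row under Grlf1, an older symbol of the gene, averaged 2.27 ± 1.28 TPM in KO and 17.8 ± 7.55 TPM in control GFP-positive libraries (SD, n = 5 each; edgeR adjusted p = 0.9999). The Grlf1 row did not pass, but each KO GFP-positive library lay below each control one there too. It ran from 0 to 3.02 TPM in KO and from 8.73 to 26.4 TPM in control libraries, with 0 counts in KO library 1. Libraries held 23699423 to 33807425 estimated counts, and the members' own counts ran from 203 to 30378 per library. The sort was checked on markers. Summed TPM of 8 motor neuron markers was 1627 to 2043 in KO and 1542 to 2004 in control GFP-positive libraries, against 51.9 in the KO and 56.7 in the control GFP-negative library. Mnx1 itself was at 231 to 316 TPM in GFP-positive and at 0.428 and 0.530 TPM in GFP-negative libraries. The labels name motor neuron as the cell type of all libraries, and the GFP-negative libraries go against it: they held 3111 (KO) and 2826 (control) summed TPM of 8 neural progenitor markers, against 594 to 743 in GFP-positive libraries.

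In GFP-positive cells the most abundant transcripts of the system were those of 2 secreted ligands, Slit2, which binds Robo1 and Robo2, and Nell2, which binds Robo3. Slit2 averaged 605 ± 69.0 TPM and Nell2 497 ± 18.0 TPM (SD, n = 10 libraries), and their ranges did not overlap. Then came Srgap3 at 100.2 ± 5.98 TPM, Robo2 at 92.4 ± 7.31 TPM and Slit3 at 90.3 ± 7.82 TPM, and these neighbours in the order overlapped in range. Robo1 followed at 66.2 ± 3.92 TPM, with a range apart from that of Slit3. Slit1 at 63.1 ± 6.60 TPM and Srgap1 at 59.7 ± 2.38 TPM came next, each overlapping in range with the member above it. Srgap2 at 44.6 ± 4.52 TPM lay apart from Srgap1 above it, and Robo3 came last at 42.5 ± 41.2 TPM with a range that overlapped Srgap2. The order was different in GFP-negative cells. There Robo3 was the highest member, at a mean of 584 TPM over 2 libraries, followed by Nell2 at 210 TPM, Srgap3 at 122 TPM and Robo1 at 98.5 TPM, with Slit2 at 36.8 TPM and Slit3 last at 3.24 TPM. The order rests on the authors' transcript lengths. On estimated counts per kilobase of all annotated exons in GFP-positive cells, Nell2 ranked 1, Srgap3 2 and Slit2 3. The exon length of Slit2 on that scale, 25433 bases, includes introns that some annotated transcripts retain, since its longest transcript has 9960 bases.

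**Figure D1:**
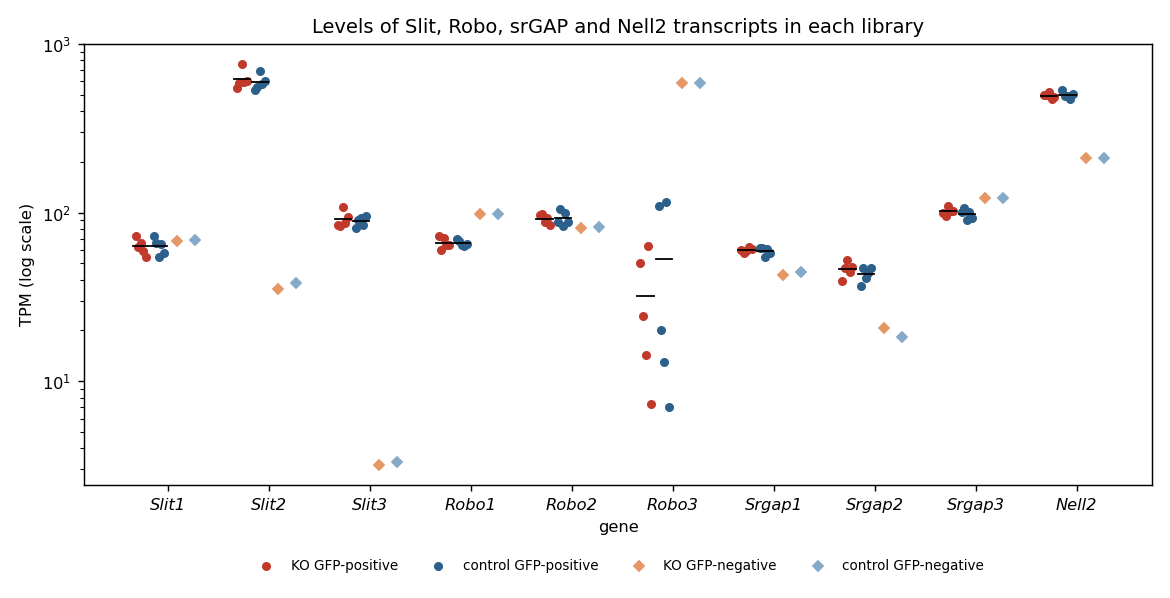
Level of each member in every library, in TPM on a log axis; circles are GFP-positive and diamonds GFP-negative libraries, KO left of control, and black lines are the means of 5 libraries. Slit2 and Nell2 lead in GFP-positive cells, Robo3 leads in GFP-negative cells at 584 TPM, and within the GFP-positive groups Robo3 spreads widest, with 7.0 to 116 TPM.

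The makeup of each family also differed between the sorts. Slit2 made up 79.7% ± 1.54 of summed Slit TPM in GFP-positive libraries (SD, n = 10), against 33.2% in the KO and 34.7% in the control GFP-negative library. Slit1 made up 8.40% ± 1.34 in GFP-positive libraries, against 63.9% (KO) and 62.3% (control) in GFP-negative ones. The Slit total was 691 to 935 TPM in GFP-positive libraries and 106 and 110 TPM in GFP-negative ones, so Slit1, at a similar level in both, was the main Slit only where the other 2 were low. Among receptors Robo3 held 4.37% to 41.6% of summed Robo TPM in GFP-positive libraries, against 76.5% (KO) and 76.4% (control) in GFP-negative ones. Among srGAPs, Srgap3 held 49.0% ± 1.05 in GFP-positive libraries (n = 10), against 66.0% in each GFP-negative library, while the summed srGAP level differed little, with 186 to 222 TPM in GFP-positive and 185 TPM in each GFP-negative library. No test was made on these shares.

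The comparison of GFP-positive with GFP-negative cells asks which of these genes belong to the reporter-expressing motor neurons and which to the other cells of the ventral cord. In edgeR's quasi-likelihood test with genotype as a covariate, 8 of the 10 members passed, 5 higher and 3 lower in GFP-positive cells. Over all 19032 genes tested, 63.7% passed (31.1% higher and 32.6% lower), so most genes differed between the sorts and the members' count is read against that background. With the replicate block 8 members passed as well, against 57.5% of genes. In these bulk libraries a lower level can come from fewer cells of a type or from less RNA per cell, and the data cannot tell these apart. The same 8 members had ranges on CPM (counts scaled to the library total) that did not overlap between the sorts, as did 62.3% of tested genes. On TPM the ranges of Robo2 did not overlap either, by a narrow gap.

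Slit3 (chromosome 11, 35121224 to 35708507, plus strand, GRCm38) showed the largest difference of the members. It lay between 81.6 and 108 TPM, with a median of 88.9 TPM, in the 10 GFP-positive libraries, against 3.17 TPM in the KO and 3.32 TPM in the control GFP-negative library. Every GFP-positive library was far above both GFP-negative ones. The log2 fold change was 4.27 (SE 0.0997; edgeR adjusted p = 6.22e-12), a 19.2-fold difference with a 95% confidence interval of 16.6 to 22.3. Only 171 of 19032 genes, 0.898%, had a fold change as high.

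Slit2 (chromosome 5, 47983138 to 48307733, plus strand) lay between 537 and 761 TPM, with a median of 588 TPM, in GFP-positive libraries, against 35.3 TPM in the KO and 38.3 TPM in the control GFP-negative library. The sorts again lay far apart, although GFP-negative cells kept a Slit2 level above that of Slit3. On estimated counts the difference was 9.08-fold (95% confidence interval 7.53 to 11; log2 fold change 3.18, SE 0.124; edgeR adjusted p = 7.87e-10), which placed Slit2 among the top 351 genes (1.84%). On log2(TPM + 1) in limma the log2 fold change was 4.00, a larger difference than on counts. Slit1 (chromosome 19, 41600257 to 41743665, minus strand), the Slit gene known mainly from the nervous system, did not pass. It lay between 54.5 and 72.7 TPM in GFP-positive libraries, against 68.0 TPM in the KO and 68.8 TPM in the control GFP-negative library, both inside that range. Its log2 fold change was -0.13 (95% confidence interval -0.34 to 0.075; edgeR adjusted p = 0.247), and with the replicate block it was 0.045 (adjusted p = 0.629).

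**Figure D2:**
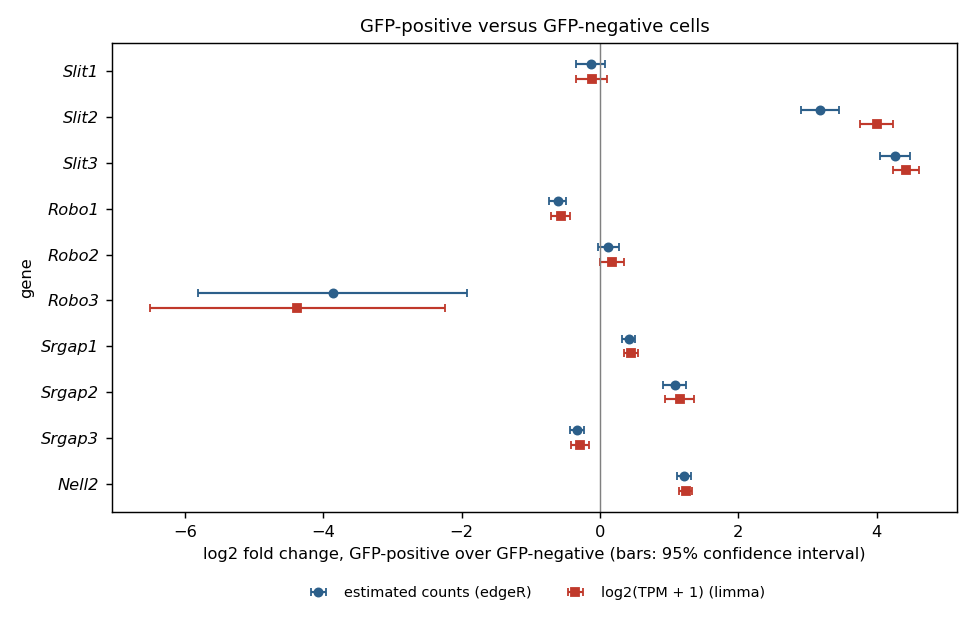
Log2 fold change of each member, GFP-positive over GFP-negative cells, on estimated counts (circles) and on log2(TPM + 1) (squares), with 95% confidence intervals. Slit3 at 4.27 and Slit2 at 3.18 lie farthest to the right and Robo3 at -3.86 farthest to the left, and Slit2 is the member whose 2 intervals lie clearly apart.

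The Slit genes that were high in GFP-positive cells are also the hosts of miR-218, a microRNA known to be abundant in motor neurons, and the sequences show how alike the 2 copies are. Mir218-1 lies in Slit2 between exons 14 and 15 of 36 (chr5:48223942-48224051, plus strand, GRCm38.p6), and Mir218-2 lies in Slit3, also between exons 14 and 15 of 36 (chr11:35616816-35616925, plus strand). Both hairpins give the same mature miRNA of 21 bases, shown from RefSeq with its seed (bases 2 to 8) in capitals, and then the 2 hairpins of 110 bases, each with the mature miRNA in capitals.
miR-218-5p: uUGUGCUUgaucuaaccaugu
Mir218-1 in Slit2: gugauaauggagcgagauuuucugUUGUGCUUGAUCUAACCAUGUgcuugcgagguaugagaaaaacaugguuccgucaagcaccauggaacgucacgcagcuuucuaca
Mir218-2 in Slit3: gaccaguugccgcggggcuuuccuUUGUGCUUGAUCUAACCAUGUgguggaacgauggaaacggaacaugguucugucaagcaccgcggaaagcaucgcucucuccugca
The polyA libraries do not measure the miRNA, so its level in the sorts was not analysed here.

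The transcript length implied for Slit2 and Slit3 differed between the sorts as well. The ratio of a gene's estimated count to its TPM, scaled by library, gives the mean length of the transcripts to which its reads were assigned. This measure was chosen after the data were seen and is a description, with no test. For Slit2 it was 3186 to 3529 bases in KO and 3356 to 3634 bases in control GFP-positive libraries, against 6276 bases in the KO and 5820 bases in the control GFP-negative library. For Slit3 it was 3262 to 3686 bases in KO and 3271 to 3711 bases in control GFP-positive libraries, against 5228 bases in the KO and 4756 bases in the control GFP-negative library. The GFP-negative Slit3 lengths rest on only 203 (KO) and 207 (control) estimated counts, against 3180 to 4672 in GFP-positive libraries. In both genes the GFP-positive libraries of both genotypes lay below both GFP-negative ones, with a ratio of the means of 0.564 for Slit2 and 0.708 for Slit3. Among 11126 genes with such a length, 12.3% had ranges that lay apart, but only 3 genes (0.0270%, Slit2 among them) differed as much as Slit2 and 17 genes (0.153%) as much as Slit3. The other 8 members overlapped between the sorts, with ratios of 0.948 to 1.02. The measure came within 5% of the annotated length in 478 of 681 genes with a single annotated transcript (70.2%).

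The annotation (GENCODE M21, GRCm38) lists 23 transcripts for Slit2, from 415 to 9960 bases, and 4 for Slit3, from 459 to 5228 bases. Of the Slit2 transcripts 7 span Mir218-1, and 2 of these begin inside the gene rather than at its promoter, the nearest at 48223471, which is 471 bases before the hairpin, and its length is 826 bases. In Slit3 only the 5228-base transcript, the full-length coding one, spans Mir218-2. Which transcripts drew the reads in each sort was not tested, since the deposited tables sum transcripts to genes. TPM divides by that length, and the Slit2 difference between the sorts was larger on TPM than on counts.

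**Figure D3:**
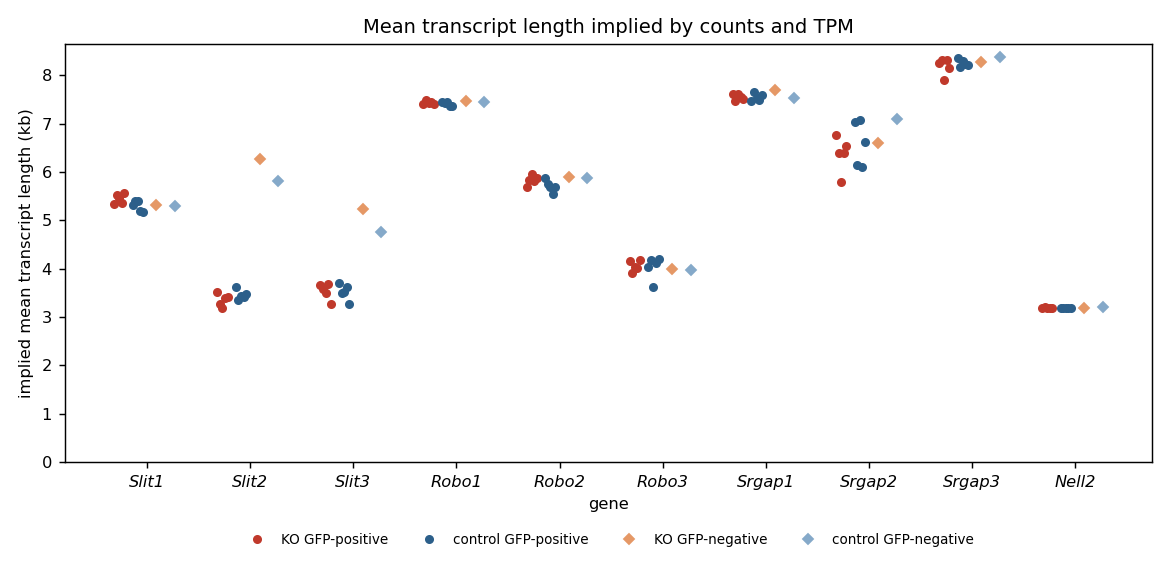
Mean transcript length implied by estimated counts and TPM, in kilobases, for each member in every library; circles are GFP-positive and diamonds GFP-negative libraries, KO left of control. Slit2 and Slit3 are shorter in all 10 GFP-positive libraries than in either GFP-negative library, and the other 8 members overlap.

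Among the receptors, Robo3 (chromosome 9, 37415669 to 37433246, minus strand) was the member with the strongest difference towards GFP-negative cells. It stood at 50.5, 24.2, 14.2, 63.8 and 7.31 TPM in KO GFP-positive libraries 1 to 5, at 109, 20.2, 13, 116 and 7.0 TPM in control GFP-positive libraries 1 to 5, and at 585 TPM in the KO and 583 TPM in the control GFP-negative library. All GFP-positive libraries lay far below both GFP-negative ones, at 1.2% to 19.8% of the GFP-negative mean, but they also differed widely among themselves. The log2 fold change was -3.86 (SE 0.865; 95% confidence interval -5.81 to -1.92; edgeR adjusted p = 0.00296), and 217 of 19032 genes (1.14%) had a fold change as low. With the replicate block it was -2.94 (adjusted p = 0.00177). Without the GFP-positive libraries numbered 1 and 4 it was -5.37. Those libraries were left out after seeing that Robo3 was highest there. Leaving them out lowers the value by construction, so that fit cannot back the call. The call was lost without the KO GFP-negative library (-3.46, adjusted p = 0.0522) and in control libraries alone (-3.44, adjusted p = 0.135).

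Robo1 and Robo2, the receptors that carry the repulsive Slit signal, differed less between the sorts than Slit2, Slit3 and Robo3. Robo1 passed and Robo2 did not. Robo1 (chromosome 16, 72308306 to 73046095, plus strand) lay between 59.8 and 72.3 TPM, with a median of 64.6 TPM, in GFP-positive libraries, against 98.6 TPM in the KO and 98.4 TPM in the control GFP-negative library. It was lower in every GFP-positive library, with a log2 fold change of -0.61 (SE 0.0548; edgeR adjusted p = 3.71e-07). Its neighbour Robo2 (chromosome 16, 73891839 to 74411825, minus strand) lay between 82.9 and 105 TPM in GFP-positive libraries, against 80.8 TPM in the KO and 82.3 TPM in the control GFP-negative library. On TPM the lowest GFP-positive library lay just above both GFP-negative ones, but on CPM its ranges overlapped, and the log2 fold change of 0.12 (95% confidence interval -0.032 to 0.27) did not pass (edgeR adjusted p = 0.156). Motor neurons thus held both Slit receptors at levels within 1.53-fold of the other cells, where Slit2 and Slit3 differed 9.08-fold and 19.2-fold.

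Promoter sequences are shown for Slit2, the member highest on TPM in GFP-positive cells, and for Robo3, the highest in GFP-negative cells. RefSeq (GRCm38.p6) held an entry for 8 of the 10 members. The 250 bases before each start were searched on both strands for 5 motifs. The homeodomain core was spelled TAATTA. The E-boxes were CAGCTG for the first and CATATG for the second. The GC box was spelled GGGCGG, and its matches may overlap. The TATA box was spelled TATAAA. Shown are the bases before the start that lie outside any annotated exon, for Slit2 chr5:47982905-47983137 (plus strand, 233 bases) and for Robo3 chr9:37433247-37433425 (minus strand, 179 bases), with GC box, TATA box and homeodomain core matches in capitals.
Slit2 promoter: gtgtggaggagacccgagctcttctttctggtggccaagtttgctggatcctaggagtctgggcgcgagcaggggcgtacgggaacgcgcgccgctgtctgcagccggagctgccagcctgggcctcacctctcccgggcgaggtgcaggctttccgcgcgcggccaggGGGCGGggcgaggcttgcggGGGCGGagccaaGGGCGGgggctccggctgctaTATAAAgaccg
Robo3 promoter: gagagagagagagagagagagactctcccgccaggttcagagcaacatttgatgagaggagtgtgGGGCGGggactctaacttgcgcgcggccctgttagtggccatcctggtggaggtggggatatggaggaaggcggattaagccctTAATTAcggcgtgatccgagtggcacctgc
Counted from the RefSeq start, Slit2 had the TATA box beginning at -28 and GC boxes at -81, -61 and -49, and neither the homeodomain core nor an E-box. Among the 8 members with an entry, only Robo3 had the homeodomain core, at -101. Robo3 also had GC boxes at -185 and, in the bases not shown, at -68 and -64, where the 2 matches overlap. Over 32851 promoter windows of this length, 4.84% held the homeodomain core, 12.4% the TATA box, 32.7% the GC box, 13% the first E-box and 3.46% the second. Of the 8 members 6 had the GC box, 2 the TATA box (Slit2 and Srgap3) and 1 the first E-box (Robo2, at 1 of its 3 starts), and none the second. A match says only that these letters are there.

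The srGAPs split between the sorts. Srgap2 (chromosome 1, 131285251 to 131527352, minus strand), known for shaping filopodia and neuron migration, was higher in GFP-positive cells: 36.6 to 52.0 TPM with a median of 45.5 TPM, against 20.6 TPM in the KO and 18.4 TPM in the control GFP-negative library. No library crossed between the sorts, and the log2 fold change was 1.08 (SE 0.0767; edgeR adjusted p = 4.23e-08). Srgap1 (chromosome 10, 121780991 to 122047315, minus strand), the srGAP first known to inactivate Cdc42 downstream of Slit and Robo, was higher by a smaller amount: 54.6 to 62.5 TPM in GFP-positive libraries, against 42.4 TPM (KO) and 44.5 TPM (control) in GFP-negative ones. Its log2 fold change was 0.42 (SE 0.0418; edgeR adjusted p = 1.18e-06). Srgap3 (chromosome 6, 112717971 to 112947266, minus strand), also called WRP and known for binding the WAVE complex protein WAVE1, went the other way: 89.9 to 110.1 TPM with a median of 101 TPM in GFP-positive libraries, against 122 TPM in each GFP-negative library. The log2 fold change was -0.34 (SE 0.0462; edgeR adjusted p = 2.26e-05).

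Nell2 (chromosome 15, 95075230 to 95528559, minus strand), the ligand of Robo3, was higher in the cells in which Robo3 was low. It lay between 472 and 531 TPM, with a median of 496 TPM, in GFP-positive libraries, against 209 TPM in the KO and 210 TPM in the control GFP-negative library. The sorts did not overlap, and the log2 fold change was 1.21 (SE 0.0483; edgeR adjusted p = 3.32e-10), a 2.32-fold difference. The calls of the 7 members other than Robo3 held in each of 22 alternative fits, and that of Robo3 in 20.

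The comparison of KO with control GFP-positive cells asks whether loss of Arhgap35 alters the transcripts of this guidance system in motor neurons. None of the 10 members passed in edgeR's quasi-likelihood test (adjusted p = 0.9999 for each), and 0 passed at an unadjusted p under 0.05, in DESeq2, in limma or with the replicate block. The background was low too: 6 of 17487 genes (0.0343%) passed, 375 (2.14%) had an unadjusted p under 0.05, and 5 (0.0286%) passed with the block. DESeq2 called 11 genes and limma 0. All 10 members overlapped in range between the genotypes, as did all but 0.538% of the genes tested.

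The intervals, from the fit without the replicate block, show how large a difference that fit could have missed. Leaving Robo3 aside, the members' log2 fold changes ran from -0.025 to 0.043, and their 95% confidence intervals reached no lower than -0.18 and no higher than 0.22, a fold of 0.882 to 1.16. Slit2 stood at 547, 584, 761, 592 and 605 TPM in KO libraries 1 to 5, against 537, 555, 689, 583 and 601 TPM in control libraries 1 to 5. The libraries numbered 3 were the highest in both genotypes, and the groups overlapped throughout. The log2 fold change of Slit2 was 0.000365, with a 95% confidence interval of -0.18 to 0.18 (edgeR adjusted p = 0.9999), and with the replicate block the interval narrowed to -0.049 to 0.052. Nell2 stood at 499, 497, 517, 472 and 483 TPM in KO libraries, against 531, 494, 495, 475 and 505 TPM in control libraries, with the KO library higher in 2 of 5 same-numbered pairs. Its log2 fold change was -0.025 (95% confidence interval -0.11 to 0.057).

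The remaining ligands and receptors were as close. Slit3 averaged 91.5 ± 9.88 TPM in KO and 89.1 ± 6.01 TPM in control libraries (SD, n = 5 each), and Slit1 averaged 63.2 ± 6.85 TPM in KO and 63.0 ± 7.15 TPM in control libraries. Robo1 averaged 66.3 ± 5.25 TPM in KO and 66.1 ± 2.64 TPM in control libraries, with a log2 fold change of 0.000261 (95% confidence interval -0.11 to 0.11). Robo2 averaged 92.2 ± 5.87 TPM in KO and 92.6 ± 9.25 TPM in control libraries. Each of these differences was smaller than the SD within either genotype. Among the srGAPs, Srgap1 averaged 60.2 ± 1.68 TPM in KO and 59.3 ± 3.06 TPM in control libraries, and Srgap3 averaged 102 ± 5.20 TPM in KO and 98.3 ± 6.72 TPM in control libraries. Srgap2 averaged 46.1 ± 4.58 TPM in KO and 43.0 ± 4.38 TPM in control libraries, and the KO library was higher in 4 of 5 pairs on CPM. Its log2 fold change was 0.043 (95% confidence interval -0.089 to 0.17) in the fit without the block, whose interval includes the spread between pairs. The Srgap2 differences in pairs 1 to 5 on log2 CPM were 0.051, 0.081, 0.023, 0.069 and -0.0069. No srGAP passed in edgeR with or without the block, also at an unadjusted p under 0.05.

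**Figure D4:**
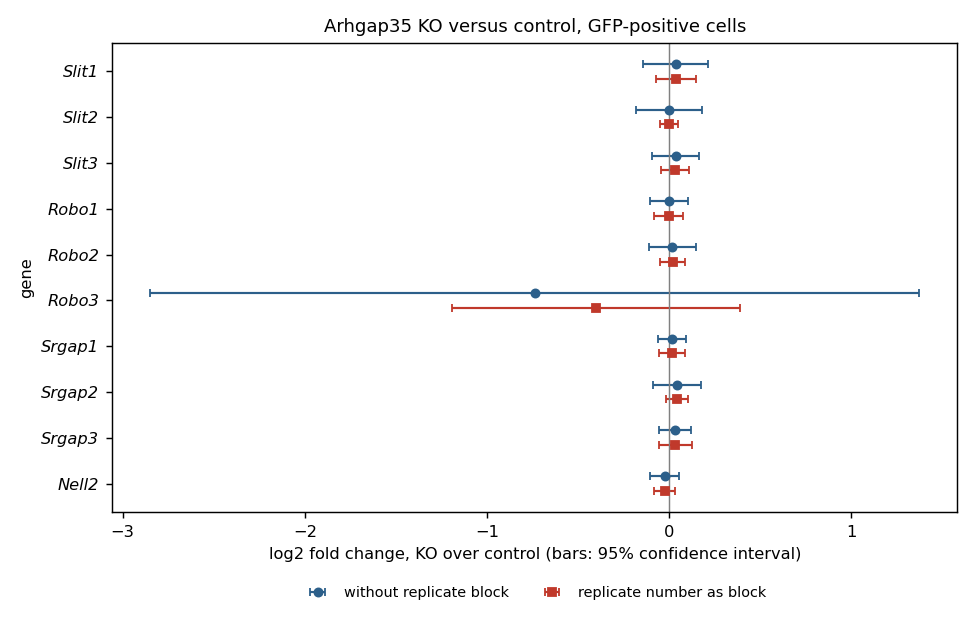
Log2 fold change of each member, KO over control, in GFP-positive cells, without (circles) and with (squares) the replicate number as a block, with 95% confidence intervals. The values other than Robo3 lie between -0.025 and 0.043 without the block, and the interval of Robo3, from -2.85 to 1.37, is by far the widest.

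Robo3 was the exception in precision. Its log2 fold change was -0.74 (SE 0.920; 95% confidence interval -2.85 to 1.37; edgeR adjusted p = 0.9999), and with the block it was -0.40 (95% confidence interval -1.19 to 0.39; adjusted p = 0.986). The KO library was lower in the pairs numbered 1 and 4, with log2 CPM differences of -1.07 and -0.91, and higher in the pairs numbered 2, 3 and 5, with differences of 0.19, 0.25 and 0.042. Without the libraries numbered 1 and 4 the log2 fold change was 0.18 (adjusted p = 0.9999), so those libraries set its sign. Over the 10 GFP-positive libraries its coefficient of variation was 97.4%, the 6th highest of 10143 genes with a mean of at least 10 CPM, where the median gene had 5.88%. Srgap1 at 3.21%, Nell2 at 3.87% and Srgap3 at 4.35% lay below that median, and Slit2 at 9.97% and Slit1 at 9.72% above it.

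The summed ventral interneuron markers were also highest in the GFP-positive libraries where Robo3 was highest. In the GFP-positive libraries numbered 1 and 4, where Robo3 was 50.5 to 116 TPM, 9 ventral interneuron markers summed to 39.4 to 65.3 TPM, against 14.6 to 33.5 TPM in those numbered 2, 3 and 5, where Robo3 was 7.0 to 24.2 TPM. In the GFP-negative libraries the same sum was 226 TPM (KO) and 258 TPM (control). The 6 dorsal commissural markers summed to 56.5 TPM in KO library 1 and 72.9 TPM in control library 1, but only to 15.7 TPM in KO library 4 and 16.5 TPM in control library 4, near the 13.5 to 35.2 TPM of the libraries numbered 2, 3 and 5. So libraries 1 and 4 were both high in Robo3 and in ventral interneuron markers, and only library 1 was high in dorsal markers. None of the 9 ventral interneuron markers, and none of the 5 dorsal commissural markers tested, passed between KO and control in edgeR, and their median log2 fold changes were -0.64 and -0.42. The motor neuron sum did not set libraries 1 and 4 apart, with 1589 to 1839 TPM against 1542 to 2043 TPM in the others. The part of other neurons in the Robo3 values was not tested.

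**Figure D5:**
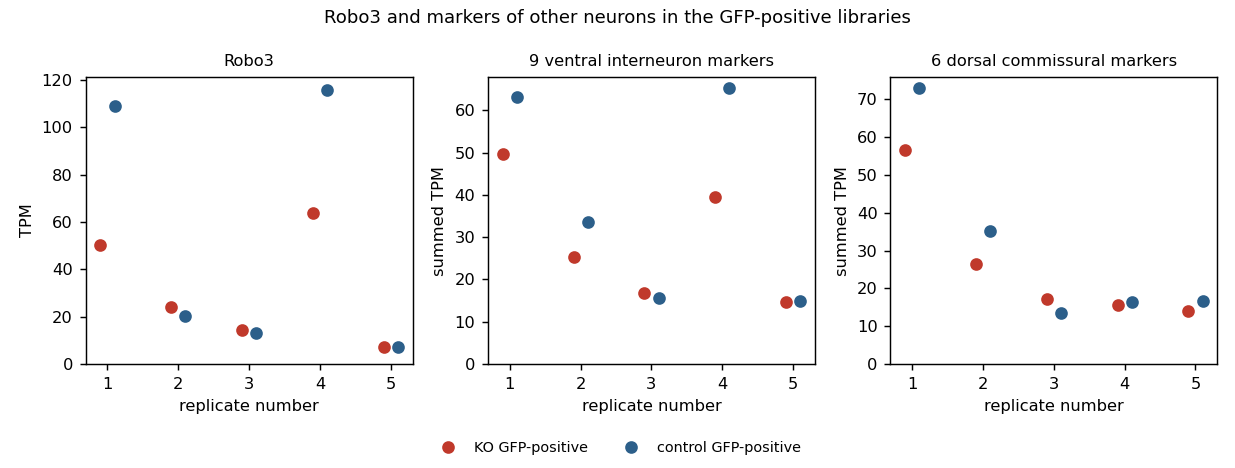
Robo3 (TPM, left) beside the summed TPM of 9 ventral interneuron markers (middle) and 6 dorsal commissural markers (right) in the GFP-positive libraries by replicate number, KO left of control. Numbers 1 and 4 are highest for Robo3, with 50.5 to 116 TPM, and for the ventral sum, while number 4 is low for the dorsal sum, with 15.7 and 16.5 TPM.

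Whether the KO effect differed between the sorts was asked with the difference of the effects, in GFP-negative minus GFP-positive cells, with the spread of the unreplicated GFP-negative libraries taken from the GFP-positive groups. No member passed in edgeR (adjusted p = 0.99997 for each; 0 also at an unadjusted p under 0.05 and in DESeq2), against 5 of 19763 genes (0.0253%), or 1.78% at an unadjusted p under 0.05. The 9 members other than Robo3 had differences of -0.046 to 0.043 on the log2 scale, with 95% confidence intervals that reached -0.48 and 0.46. Robo3 had 0.76, with an interval of -4.27 to 5.79.

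Other genes of the pathway were taken from 4 lists. The first held 15 surface partners of Slits and Robos, such as heparan sulfate proteoglycans, Flrt proteins, the netrin receptor Dcc and the Nell2 relative Nell1. Between the sorts 6 of these rose and 9 fell in GFP-positive cells in edgeR, where 31.1% of all genes tested rose and 32.6% fell, with a median log2 fold change of -0.26 beside 0.015 over all genes. Nell1 averaged 65.5 ± 5.05 TPM in GFP-positive and 5.20 TPM in GFP-negative libraries (log2 fold change 3.61), and the syndecan Sdc3 averaged 253 ± 13.9 TPM in GFP-positive and 105 TPM in GFP-negative libraries (1.24). Flrt1 averaged 9.25 ± 0.794 TPM in GFP-positive and 3.34 TPM in GFP-negative libraries (1.51). Named here are the 4 genes of the list with the smallest p, and its other syndecan and Flrt genes went both ways. Dcc, which attracts commissural axons to netrin, averaged 52.4 ± 4.8 TPM in GFP-positive and 130.3 TPM in GFP-negative libraries (-1.35), in the direction of Robo3.

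The second list held 11 genes of heparan sulfate synthesis and editing, the sugar that Slit and Robo bind together. Of these 3 rose and 5 fell (5 were called in control libraries alone), with a median of -0.088. The 8 calls of 11 lie near the 63.7% of all genes called. The 6-O-sulfotransferases Hs6st1 and Hs6st2 were higher in GFP-positive cells (log2 fold changes 0.35 and 0.80), and the epimerase Glce and the sulfotransferase Ndst2 were lower (-0.50 and -0.29). Of 17 cytoplasmic effectors of Robo, 10 rose and 3 fell, beside 31.1% and 32.6% of all genes, with a median of 0.21. Cdc42, the GTPase that srGAPs act on, averaged 531 ± 22.5 TPM in GFP-positive and 322 TPM in GFP-negative libraries (log2 fold change 0.60). The actin regulator Evl (0.45), the exchange factor Sos2 (0.56) and the myosin Myo9b (0.33) rose as well. Of 11 genes of Robo trafficking, cleavage and splicing, 10 were tested, 4 rose and 3 fell, a count again near the 63.7% of all genes called, with a median of 0.066. Ndfip1 and Ndfip2, adaptors known to lower Robo1 on commissural axons before crossing, rose (0.76 and 0.39), while the protease Adam10 and the RNA decay factor Upf2, known for acting on the Robo3.2 transcript, fell (-0.39 and -0.35).

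Between KO and control GFP-positive cells none of the genes tested from the 4 lists passed in edgeR or under the replicate block. Only 1 gene of the 4 lists, Nova2, had an unadjusted p under 0.05 in edgeR, where 375 of all 17487 genes (2.14%) did. The medians were -0.00427 for 14 surface partners, 0.00213 for 11 heparan sulfate genes, 0.00897 for 17 effectors and 0.00987 for 10 trafficking and splicing genes, beside -0.00158 over all genes. Nova2, a splicing regulator known for acting on Robo transcripts, averaged 99.97 ± 5.16 TPM in KO and 88.9 ± 6.14 TPM in control libraries (log2 fold change 0.16, unadjusted p = 0.00430, edgeR adjusted p = 0.9999). The other genes with the smallest p of their lists were Plxna1 at 0.066, Sdc3 at 0.043, Ndst1 at 0.076, Hs2st1 at 0.048, Arhgap39 at 0.045, Cdc42 at 0.046 and Ndfip1 at 0.037 on the log2 scale, none of which passed.

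For each member called between the sorts, the 2 genes with the most similar profile were taken by the root mean square distance of centred log2 CPM over the 12 libraries, among 13505 genes. Slit2 lay nearest to Trim16 (0.0793) and Ngfr (0.0900), and Ngfr, the p75 neurotrophin receptor, averaged 501 TPM in GFP-positive and 58.8 TPM in GFP-negative libraries. Slit3 lay nearest to Nrg1 (0.0840), which encodes neuregulin, and to Nwd2 (0.0919). Nrg1 averaged 125 TPM in GFP-positive and 5.71 TPM in GFP-negative libraries. Robo3 lay nearest to Slc6a5 (0.30), the glycine transporter of inhibitory neurons, and to the homeodomain gene Uncx (0.316), at distances several times those of the other members. Nell2 lay nearest to Iglon5 (0.0592) and Mob3a (0.0613), Srgap2 to Slitrk1 (0.0459) and Nek1 (0.0463), and Srgap1 to Nmnat2 (0.0336) and Madd (0.0347). Srgap3 lay nearest to Ash1l (0.0329) and C530008M17Rik (0.0350), and Robo1 to Mbtps1 (0.0401) and Vwa9 (0.0481). These distances rest largely on the difference between the sorts, which all 12 libraries share.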

How the data were processed

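Ventral spinal cord cells were sorted on GFP and their polyA RNA was sequenced as 50-base single ends by a kit without strand information, per the labels' protocols. The authors deposited estimated counts by gene symbol, without scaling between libraries. The authors also deposited TPM values. Kallisto, with no version, and the mm10 genome are named per the submitters' processing notes, which do not cover the step from transcripts to symbols. The deposited TPM columns sum to 974800 to 1018240, and the labels do not explain the departure from equal sums. Genotype, sort and replicate number in the column names tied each column to its sample.

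The members and gene lists were chosen with earlier results of these data known. Estimated counts were rounded, kept by filterByExpr, TMM-scaled and run over all genes in edgeR 4.0.16 (robust quasi-likelihood fits, R 4.3.3), with BH adjustment and a threshold of 0.05. The genotype comparison used the 10 GFP-positive libraries, and the comparison of sorts all 12 with genotype as a covariate. The count floor, 3, amounts to 0.0887 to 0.127 CPM, and intervals from these fits cover the spread between libraries. Alternatives were DESeq2 1.42.0, limma 3.58.1 on log2(TPM + 1) and log2(TPM + 0.1), other scaling, no filter, each genotype alone, each replicate left out and the replicate block. Leaving out libraries 1 and 4 was added after seeing the data. Same-numbered KO and control libraries deviated together from their group means (r of 0.196 to 0.312 in 5 pairs, at most 0.0607 in the 20 others), so the numbers pair the samples, although the labels do not name what they share. Named were the 10 members, Arhgap35, from each list up to 4 called genes by p (2 if there was no call) and for each called member the 2 nearest genes by profile.

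Positions come from GENCODE M21 on GRCm38, and sequences from RefSeq (GRCm38.p6), with 8 of 10 promoters and both miR-218 hairpins matched. Implied lengths used genes with at least 100 counts and were scaled on genes with 1 annotated transcript. Arhgap35 also has a row under its older symbol Grlf1 in the tables, which was not added to it. Exons of Srgap1 and Srgap3 overlap other annotated genes by 131 and 150 bases.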

Additional observations from a re-analysis of the deposited data

Results flagged for a closer look

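Among the 20 groups of 5 libraries formed by the 10 members and 2 genotypes, 2 had a library far from the others by Dixon's test, where chance gives about 1 in 20. Both were KO GFP-positive library 3, for the 2 Slit genes that were high in motor neurons. Slit2 stood at 1060 CPM there, against 834 to 899 CPM in the other KO libraries, and the gap was 0.712 of the range, just above the critical value of 0.71. Slit3 stood at 164 CPM there, against 132 to 139 CPM in the others (0.798 of the range). The control library of the same number was also the highest of its group, at 1060 CPM for Slit2 and 147 CPM for Slit3. The labels do not name what the libraries numbered 3 share, and its part in these values was not tested.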

How the results depend on the processing

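Every call of a member between the sorts held under all alternatives run, except that of Robo3, which gave -3.44 in control libraries alone and -3.46 to -4.22 on leaving out 1 library. Slit1, not called, turned to 0.045 under the replicate block. The heparan sulfate list had 5 calls in place of 8 in control libraries alone. Between KO and control no member was called in any of 19 alternatives, but signs changed, for Slit2, Robo1 and Robo2 at values near 0. Slit2 was -0.00245 with library size only and -0.0016 without the filter, Robo1 was -0.0016 with library size only, -0.00203 without the filter, -0.0016 with the block and -0.016 without libraries 1 and 4, and Robo2 was -0.00256 in limma at either pseudocount. Robo3, at -0.74, was 0.18 without libraries 1 and 4, -0.22 without control library 4 and -1.14 without KO library 4, the ends of its range on leaving out 1 library. Leaving out 1 library gave -0.00732 to 0.087 for Slit1, -0.065 to 0.065 for Slit2, -0.025 to 0.061 for Slit3, -0.028 to 0.029 for Robo1, -0.014 to 0.067 for Robo2 and -0.00602 to 0.034 for Srgap1. The count of called genes, 6, was 5 with the block, 11 in DESeq2, 0 in limma at either pseudocount, 0 without libraries 1 and 4, and 0 to 8 on leaving out 1 library. For the difference of KO effects the count of 5 was 3 in DESeq2, 1 with the block, 3 without libraries 1 and 4 and 0 to 6 on leaving out 1 library. Slit2 there was -0.00589 without the filter and -0.00423 without libraries 1 and 4, and Robo3 -0.15 without them, with 0.24 to 1.16 on leaving out 1 library. Leaving out 1 library gave -0.089 to 0.00648 for Slit1, -0.065 to 0.065 for Slit2, -0.013 to 0.045 for Robo1, -0.076 to 0.00354 for Robo2 and -0.00753 to 0.063 for Srgap2. By counts per kilobase of exons the ranks were 4 for Slit1, 3 for Slit2, 8 for Robo1, 7 for Robo2, 9 for Robo3, 6 for Srgap1, 10 for Srgap2, 2 for Srgap3 and 1 for Nell2. The block changed no member's call. The cause of these changes was not tested.

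The GFP-negative cells were sequenced once per genotype, so their spread is borrowed from the GFP-positive groups. Robo3 in GFP-positive cells varied widely between libraries, and its lowest library held 306 estimated counts, above the count floor of 3. The source of that spread was not tested.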
